A study of Homo sapiens with 9 samples.

Results

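The genes described here are 9 stress genes that the transcription factor p53 is known to switch on: GDF15, GADD45A, SESN1, MDM2, BTG2, TP53I3, DDB2, FAS and TNFRSF10B. They were chosen by symbol, and every probe set annotated to 1 of these symbols alone was kept, each on its own. A probe set is the group of oligonucleotide probes from which the array gives 1 value for a transcript. In all, 8 of the 9 genes had 18 probe sets among the 22215 tested, which cover 11963 genes. The expression of BTG2 was not analysed here.

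RNA was measured on 9 Affymetrix arrays of LNCaP cells, an androgen-responsive line from a lymph node metastasis of prostate cancer, with 3 arrays per group that the labels call biological replicates. All cultures were first deprived of androgen for 2 days in RPMI medium with 10% charcoal-stripped serum. The group labelled vehicle then received ethanol and DMSO for 24 h, and the group labelled R1881 received DMSO with 1 nM R1881, a synthetic androgen that cells do not metabolise. The remaining group received 1 nM R1881 together with 20 µM gedunin, a limonoid from neem-family trees known to impair the HSP90 chaperone, for 24 h. For the group labelled R1881 the titles give 6 h and the treatment text gives 24 h, which the labels do not settle. By the titles, the gedunin group differs from the group labelled R1881 by time as well as by gedunin, and that comparison does not separate them. As labelled, the gedunin group differs from the group labelled vehicle by both R1881 and gedunin, whose effects that comparison does not separate. P-values measure the spread between these arrays of 1 cell line, and in whole cultures fewer cells with a transcript and less transcript per cell cannot be told apart.

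The androgen-induced genes went against 2 of the labels. FKBP5, a co-chaperone gene that the androgen receptor switches on, had a mean intensity of 1810 ± 147 (SD, n = 3) on the arrays labelled vehicle, 45.1 ± 3.15 on those labelled R1881 and 122 ± 16 on those labelled gedunin plus R1881. KLK3, which encodes prostate-specific antigen, had means of 11800, 1340 and 7220 in the same order. KLK2, the gene of a related kallikrein, had means of 3160, 157 and 1010, and TMPRSS2, a serine protease gene, had 3160, 187 and 959. All 4 measured androgen genes were thus highest on the arrays labelled vehicle. Whether these 2 sets of arrays carry each other's label was not tested, and the groups are named below as "labelled vehicle" and "labelled R1881". Were the labels exchanged, the gedunin arrays would differ from labelled R1881 by both R1881 and gedunin, and from labelled vehicle by gedunin. Of 12 luminal prostate markers 9 were measured, with 0 below the lowest array median of 52.4, while all 5 measured basal markers, 2 of 7 fibroblast markers and 4 of 5 leukocyte markers lay below it. The mean log2 level was between 4.58 and 4.70 for the basal markers on all arrays, between 5.71 and 5.83 for the fibroblast markers and between 4.74 and 4.82 for the leukocyte markers. The mean log2 level of the luminal markers did differ between the groups, at 10.87 to 10.98 on labelled vehicle, 9.35 to 9.41 on labelled R1881 and 10.25 to 10.37 with gedunin. All 9 were called on labelled R1881 against labelled vehicle, 4 higher and 5 lower: the keratin genes KRT8 and KRT18 were 7.87-fold and 4.4-fold lower and FOLH1, which encodes prostate-specific membrane antigen, 2.65-fold higher. With gedunin 6 were higher and 2 lower against labelled R1881, and 3 higher and 6 lower against labelled vehicle. Their part in the members' results was not tested. Limma called 1 basal marker higher with gedunin than on labelled R1881 and 0 fibroblast or leukocyte markers in any comparison, where 1 fibroblast and 1 leukocyte marker had an unadjusted p under 0.05. Arrays of 1 group correlated at 0.996 to 0.998 and arrays of different groups at 0.975 to 0.985 over all probe sets.

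The protein p53 is held at a low level by MDM2, a ubiquitin ligase that is itself made from a p53 target gene, so that the pair form a feedback loop. DNA damage and other stresses break this hold, and p53 then raises genes that stop the cell cycle, aid repair, limit oxidants or prepare cell death. Several of these genes are also reached without p53: GDF15, TNFRSF10B and GADD45A are known to respond to ATF4 and CHOP, transcription factors of the stress response to misfolded proteins and missing amino acids. In prostate, GDF15 is also known as prostate-derived factor.

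Promoter sequences from RefSeq (GRCh38.p14) were taken by symbol for 7 of the 9 genes, with 15 windows of 300 bases that reach from 250 bases before each start to 50 after it. GADD45A and TNFRSF10B were not searched, so no count of the members' windows covers them. The stretch before GDF15, the gene with the largest difference among these members, is shown whole, at chr19:18385908-18386157 on the forward strand. Capitals mark its TATAAA match, at −29 to −24 from the start.
GDF15: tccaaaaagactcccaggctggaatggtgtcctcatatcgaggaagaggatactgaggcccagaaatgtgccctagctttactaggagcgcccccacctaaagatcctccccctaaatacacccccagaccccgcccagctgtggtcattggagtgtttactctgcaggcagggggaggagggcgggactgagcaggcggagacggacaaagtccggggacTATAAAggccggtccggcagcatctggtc
Neither a p53 half-site nor TGATGNAAN, the ATF4 and C/EBP type of motif, was found in the GDF15 window on either strand, which says only that these letters are not in it. TATAAA was in 11.5% of all 35116 windows of this length, and TGATGNAAN in 3.61% of them and in 0 of the members' windows.

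The p53 half-site, a motif of 10 bases searched on both strands without mismatch, was in 6.63% of all windows and in 3 of the members' 15, those of SESN1, DDB2 and FAS. A pair of half-sites without spacer and with at most 2 mismatches in 20 bases was in 0.649% of all windows and in 4 of the members' windows, from MDM2, DDB2 and FAS. Windows of 1 gene can overlap, and the 2 of these windows from MDM2 hold the same match. For each of these genes 1 stretch of 30 bases with a match in capitals is shown, as the letters behind these counts. They lie at chr11:47214975-47215004 for DDB2, chr10:88991304-88991333 for FAS and chr12:68808918-68808947 for MDM2, on the forward strand, and at chr6:109009013-109009042 for SESN1, on the reverse strand.
DDB2: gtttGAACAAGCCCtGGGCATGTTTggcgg
FAS: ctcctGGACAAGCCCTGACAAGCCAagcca
MDM2: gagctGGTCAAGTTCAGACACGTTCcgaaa
SESN1: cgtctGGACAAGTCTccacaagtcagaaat
In DDB2, both marked runs are half-sites, at 6 to 15 and 17 to 26 after the start, and 1 base lies between them. The spacerless pair counted for DDB2 is another match, at −5 to 15 with 1 mismatch, of which the printed stretch holds only a part. In FAS and MDM2 the marked run is the pair with 2 mismatches, at −122 to −103 and −94 to −75. In SESN1 it is 1 half-site at −49 to −40. TGACNNNGC, the motif type of antioxidant response elements, was in 13.3% of all windows and in windows of SESN1, MDM2, TP53I3 and FAS. All of these are matches of letters, and binding was not measured in this series.

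GDF15, GADD45A and SESN1 set the arrays with gedunin apart from both other groups, GDF15 and GADD45A by higher values and SESN1 by lower ones. TNFRSF10B lay between the other groups on the gedunin arrays. The differences of MDM2, TP53I3, DDB2 and FAS were small: the largest difference among their probe sets was 0.42 on the log2 scale. The 6 probe sets of GDF15 (221577_x_at), GADD45A, SESN1 and TNFRSF10B passed limma's test in all 3 comparisons, and their groups did not overlap in any of them. Of these 6, 3 are of TNFRSF10B and share their target. In single comparisons 12.4% to 14.8% of all probe sets were called higher and 10.6% to 12.2% lower. The share of all probe sets called in all 3 comparisons, or without overlap, was not counted.

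**Figure D1:**
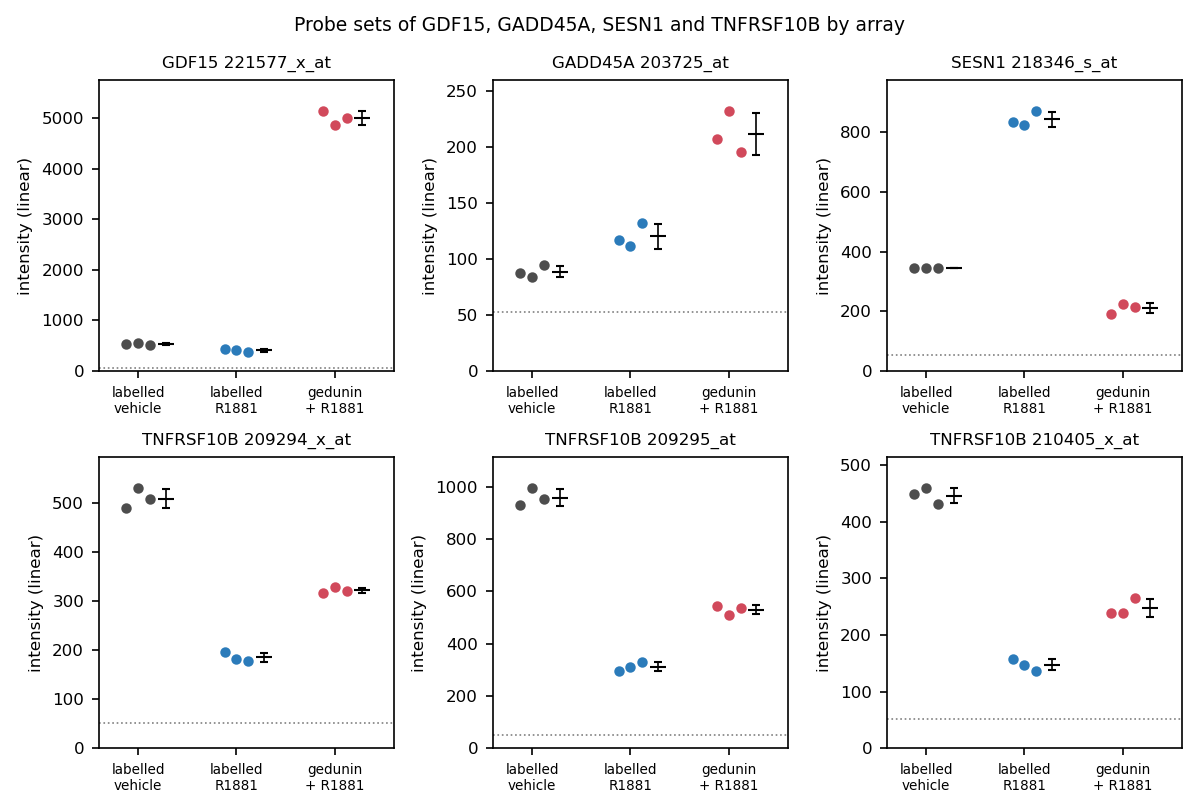
Deposited intensity on a linear scale (y axis, each panel with its own scale from 0) for the 6 probe sets called in all 3 comparisons, by group (x axis). Points are arrays, the bar beside them is the mean ± SD of 3 arrays, and the dotted line is the lowest array median, 52.4. The gedunin arrays are highest for GDF15 and GADD45A, lowest for SESN1 and between the other groups for TNFRSF10B.

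GDF15 encodes a secreted cytokine of the TGF-beta family that signals to the brainstem receptor GFRAL and is released by stressed cells. On the arrays labelled vehicle its probe set 221577_x_at read 530.0, 553 and 514, a mean intensity of 532 ± 19.4 (SD, n = 3). The arrays labelled R1881 read 439, 413 and 370.0 (407 ± 34.8). With gedunin the readings were 5135, 4868 and 5006 (5000 ± 133). Every gedunin array lay far above every other array, and the groups labelled vehicle and R1881 did not overlap either.

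Between gedunin plus R1881 and labelled R1881, GDF15 rose by 3.62 ± 0.067 (SE) on the log2 scale, 12.3-fold, with a limma adjusted p of 5.06e-12. Against labelled vehicle it rose 9.4-fold (3.23 ± 0.067, limma adjusted p = 1.77e-11). Ordered by log2 fold change among all 22215 probe sets, it was number 6 from the top in the former comparison and number 8 in the latter. It was 1.31-fold lower on arrays labelled R1881 than on those labelled vehicle (−0.39 ± 0.067, limma adjusted p = 0.000682). The order of its levels was therefore gedunin, labelled vehicle, labelled R1881, with each neighbouring pair apart beyond the spread of the arrays.

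The other GDF15 probe set, 221576_at, was dim, a word used here for a mean over the 9 arrays below 52.4, the lowest median of any array. It read 17.0, 16.4 and 17.1 on the arrays labelled vehicle and 17.1, 15.5 and 15.4 on those labelled R1881. With gedunin it read 18.1, 21.9 and 18.0, so that 1 array stood above the other two. It was 1.2-fold higher with gedunin than on labelled R1881 arrays (0.27 ± 0.078, limma adjusted p = 0.0251), a call that ended in 5 of 15 alternatives, among them leaving out gedunin replicate 2 (0.17, adjusted p = 0.0979) and R1881 replicate 2 (0.0817) or 3 (0.0748). The 2 probe sets of GDF15 thus differ widely in the size of the same difference. The suffix _x_at marks probe sets with probes that may also match other transcripts.

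GADD45A encodes a small nuclear protein that binds PCNA and takes part in growth arrest and repair. Its 1 probe set read 87.6, 84.3 and 94.3 on the arrays labelled vehicle (88.7 ± 5.11). Those labelled R1881 read 117, 112 and 133 (120 ± 10.9). Gedunin arrays read 208, 232 and 196 (212 ± 18.6), the highest group, and the 3 groups did not overlap.

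GADD45A rose 1.76-fold with gedunin against labelled R1881 (0.82 ± 0.081, limma adjusted p = 7.49e-06) and 2.38-fold against labelled vehicle (1.25 ± 0.081, limma adjusted p = 1.69e-07). Unlike GDF15, it was also higher on arrays labelled R1881 than on those labelled vehicle, by 1.35-fold (0.44 ± 0.081, limma adjusted p = 0.00122). Its relatives had other orders of means: GADD45G had means of 212, 55.4 and 65.8 over labelled vehicle, labelled R1881 and gedunin plus R1881, and GADD45B had 120, 104 and 111.

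SESN1 encodes sestrin 1, which restrains the growth kinase complex mTORC1 and takes part in the defence against oxidants. It was the 1 member called lower with gedunin in both comparisons. The 3 arrays labelled vehicle had the same deposited value, 345.4, so their SD is 0. The arrays labelled R1881 read 834, 826 and 871 (844 ± 24.2), and those with gedunin 191, 226 and 214 (211 ± 17.6). Each group stood clear of the others, with labelled R1881 highest and gedunin lowest.

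Against labelled R1881, SESN1 was 4.01-fold lower with gedunin (−2.00 ± 0.065, limma adjusted p = 2.99e-10), number 30 from the bottom of all probe sets by log2 fold change. Against labelled vehicle it was 1.64-fold lower (−0.72 ± 0.065, limma adjusted p = 3.31e-06). It was 2.44-fold higher on arrays labelled R1881 than on those labelled vehicle (1.29 ± 0.065, limma adjusted p = 8.75e-09). Exactly equal values on all 3 arrays of a group occurred for 171 probe sets in the group labelled vehicle, 110 in that labelled R1881 and 195 in that with gedunin, and their source was not tested. Leaving out any single array kept all 3 calls of SESN1.

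MDM2, the ubiquitin ligase that holds p53 down, had 5 probe sets, 4 of them dim. The remaining one, 217373_x_at, read 54.4, 41.1 and 42.9 on the arrays labelled vehicle (46.1 ± 7.20). It read 68.9, 51.3 and 64.9 on those labelled R1881 (61.7 ± 9.24), and 64.1, 54.4 and 49.6 with gedunin (56.0 ± 7.40). All 3 groups overlapped. It was 1.34-fold higher on labelled R1881 than on labelled vehicle arrays (0.42 ± 0.13, limma adjusted p = 0.03), but not called without vehicle replicate 2 (0.34, adjusted p = 0.122) or 3 (0.105), or without R1881 replicate 1 (0.121) or 3 (0.092).

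The dim MDM2 probe sets stayed in narrow ranges over the 9 arrays. 217542_at was 1.22-fold higher on labelled R1881 than on labelled vehicle arrays (0.28 ± 0.084, limma adjusted p = 0.0249), and its adjusted p rose to between 0.0581 and 0.107 when R1881 replicate 1 or any 1 of the vehicle replicates was left out. The other three, 205385_at (25.0 to 30.5), 205386_s_at (10.7 to 15.1) and 211832_s_at (20.7 to 27.4), were called in no comparison, but 205386_s_at was called on labelled R1881 against labelled vehicle without vehicle replicate 2 (0.30, adjusted p = 0.0381). None of the 5 probe sets was called between gedunin and either other group. The largest of their differences from labelled vehicle with gedunin was 0.28 ± 0.13 on the log2 scale, for 217373_x_at, with a limma adjusted p of 0.156 and of 0.0275 with the replicate number as a block. Against labelled vehicle, 217373_x_at was called without vehicle replicate 1 (0.41, adjusted p = 0.0472) and 217542_at without gedunin replicate 3 (0.28, adjusted p = 0.0211).

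TP53I3, a quinone oxidoreductase whose product raises oxidants in p53-driven cell death, was called in no comparison. Its arrays read 54.6, 54.6 and 57.5 when labelled vehicle, 69.0, 53.4 and 61.8 when labelled R1881, and 54.6, 55.7 and 52.9 with gedunin. The groups overlapped, and labelled R1881 had the widest spread (61.4 ± 7.80). Without R1881 replicate 2, the lowest of that group, limma called it higher there than on labelled vehicle (0.23, adjusted p = 0.0265), and lower with gedunin than there (−0.26, adjusted p = 0.0151).

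DDB2 encodes the damage-sensing subunit that recognises ultraviolet lesions for nucleotide excision repair. It was dim, but its arrays lay close together: 33.5, 34.3 and 32.8 labelled vehicle, 44.6, 41.0 and 42.6 labelled R1881, and 38.8, 42.5 and 42.7 with gedunin. The group labelled vehicle lay below every other array, while the remaining 2 groups overlapped. DDB2 was 1.27-fold higher on labelled R1881 than on labelled vehicle arrays (0.35 ± 0.059, limma adjusted p = 0.0006) and 1.23-fold higher with gedunin than on labelled vehicle (0.30 ± 0.059, limma adjusted p = 0.00225). Between gedunin and labelled R1881 the difference was −0.05 ± 0.059 and was not called (adjusted p = 0.642).

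FAS and TNFRSF10B are the death receptors among these genes: FAS binds FAS ligand, TNFRSF10B (DR5) binds TRAIL, and both recruit caspase-8 through the adaptor FADD. The 4 FAS probe sets were dim, from 11.3 on the lowest array of 215719_x_at to 28.3 on the highest of 204780_s_at. For 3 of them every array labelled vehicle lay below every other array, for 216252_x_at only by 19.2 against 19.4. The share of all probe sets with such a separation was not counted. 204780_s_at had means of 21.7 ± 0.670, 25.7 ± 1.09 and 26.2 ± 1.89 over labelled vehicle, labelled R1881 and gedunin plus R1881. It was 1.19-fold higher on labelled R1881 (0.25 ± 0.064, limma adjusted p = 0.0114) and 1.21-fold higher with gedunin (0.27 ± 0.064, limma adjusted p = 0.00753) than on labelled vehicle, and the former call ended without R1881 replicate 1 (0.21, adjusted p = 0.0502).

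215719_x_at rose in the same comparisons, by 0.26 ± 0.064 (limma adjusted p = 0.00734) and 0.24 ± 0.064 (limma adjusted p = 0.0136). The latter call ended without gedunin replicate 3 (0.0576) or vehicle replicate 1 (0.0624). 216252_x_at was called only on labelled R1881 against labelled vehicle (0.26 ± 0.085, limma adjusted p = 0.0408), and this held in 5 of 15 alternatives: leaving out any array other than R1881 replicate 3 took its adjusted p to between 0.0504 and 0.161. With gedunin against labelled vehicle it differed by 0.24 ± 0.085 (limma adjusted p = 0.0592), and 6 of 15 alternatives called it, among them leaving out R1881 replicate 1 (0.0208) or 3 (0.0192). 204781_s_at, the brightest of the 4, was not called in any comparison (0.06, 0.05 and 0.11). No FAS probe set was called between gedunin and labelled R1881, where their differences lay between −0.02 and 0.05.

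**Figure D2:**
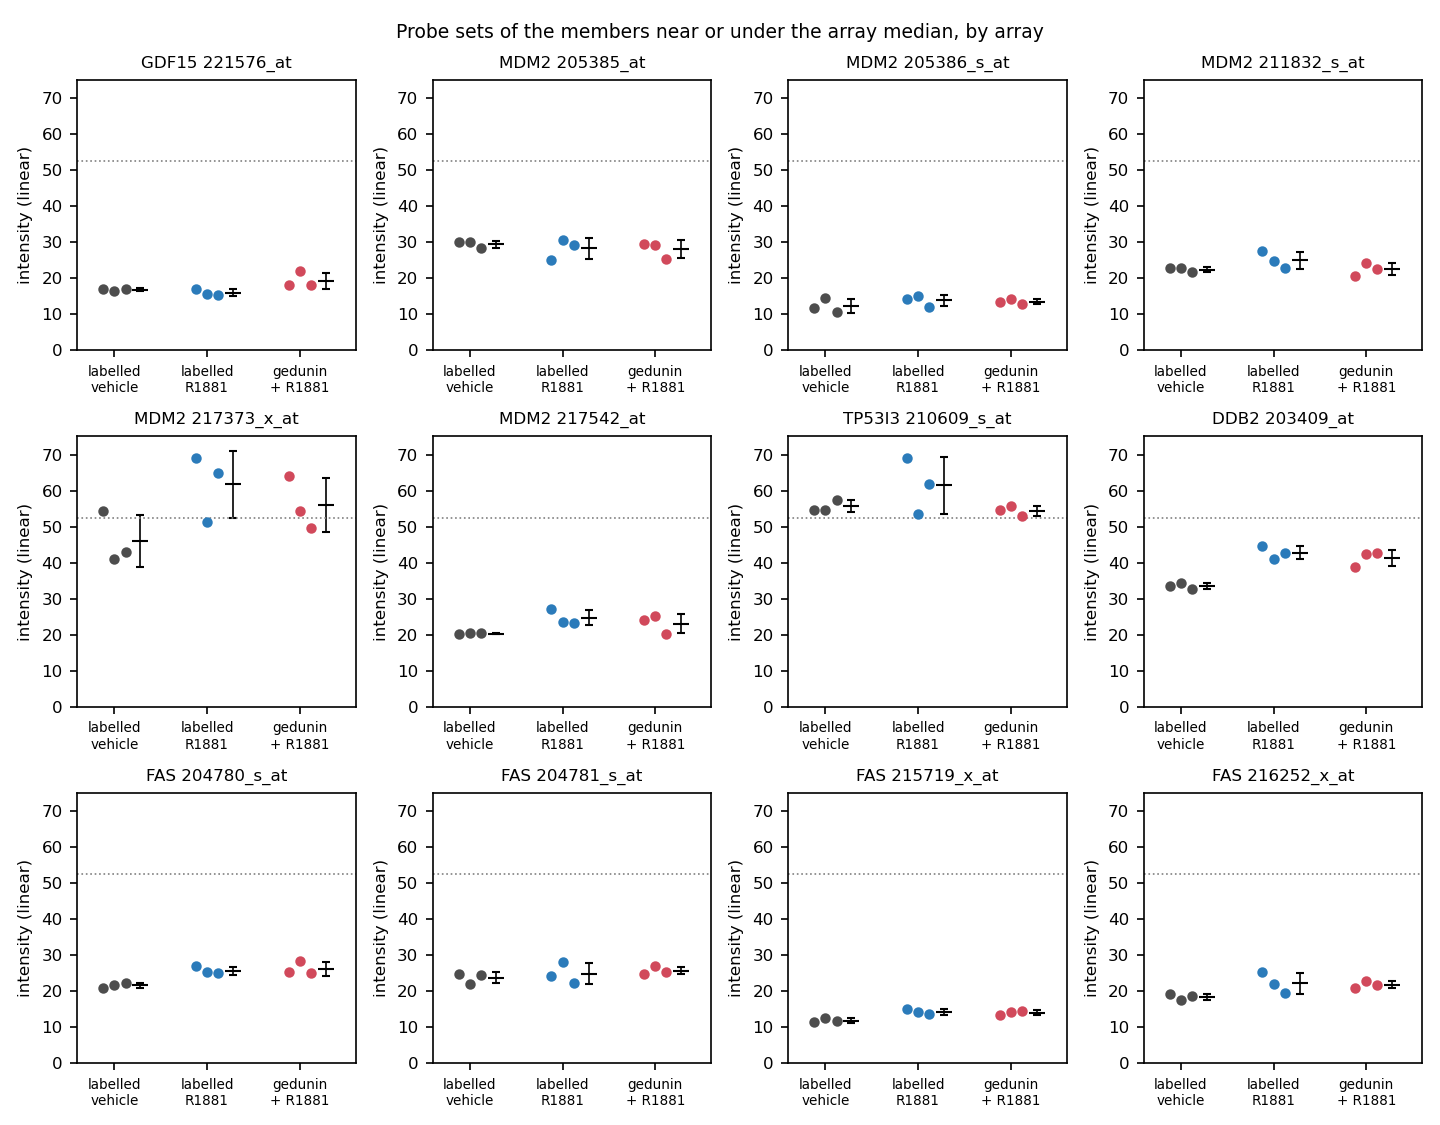
Deposited intensity on a linear scale (y axis, the same in all panels, from 0) for the 12 member probe sets not shown in the plot of the brighter ones, by group (x axis). Points are arrays, the bar is the mean ± SD of 3 arrays, and the dotted line is the lowest array median, 52.4. For DDB2 and FAS 204780_s_at, 215719_x_at and 216252_x_at every array labelled vehicle lies below every other array, while the groups of MDM2 217373_x_at and TP53I3 overlap. The share of all probe sets with such a separation was not counted.

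TNFRSF10B was called by all 3 of its probe sets in every comparison. 209295_at read 930.3, 994 and 953 on the arrays labelled vehicle (959 ± 32.3). It read 295, 311 and 330.3 on those labelled R1881 (312 ± 17.7) and 545, 511 and 535 with gedunin (530 ± 17.6). Labelled vehicle was highest, labelled R1881 lowest and gedunin between them, with no overlap.

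Against labelled R1881, TNFRSF10B was 1.7-fold higher with gedunin by 209295_at (0.77 ± 0.060, limma adjusted p = 8.35e-07), 1.74-fold by 209294_x_at and 1.68-fold by 210405_x_at. Against labelled vehicle it was 1.81-fold lower with gedunin (−0.86 ± 0.060, limma adjusted p = 3.33e-07), with 1.58-fold and 1.8-fold by the other two. Labelled R1881 was 3.07-fold below labelled vehicle (−1.62 ± 0.060, limma adjusted p = 5.4e-10), with 2.75-fold and 3.03-fold by the other probe sets. The gedunin arrays thus lay above labelled R1881 and below labelled vehicle. As labelled, the latter comparison differs by both R1881 and gedunin, so it does not show gedunin alone. Were the labels exchanged, this would hold for the comparison with labelled R1881 instead. The androgen-induced genes above have the same order of groups, and their part in this result was not tested.

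The labelled R1881 and labelled vehicle arrays differed in 7 of the 8 measured genes by at least 1 probe set: 8 of 18 probe sets were higher on labelled R1881, 4 were lower and 6 were not called. Over all probe sets 14.8% were called higher and 12.2% lower. The share of all genes called by at least 1 probe set was not counted, and a gene with more probe sets can be called more easily. FAS was not called by its brightest probe set. The 4 lower ones were GDF15 221577_x_at and the 3 of TNFRSF10B. Of the 8 higher ones, GADD45A, SESN1 and MDM2 217373_x_at were above the dim level, and the other five, from MDM2, DDB2 and FAS, were dim, with log2 differences of at most 0.35. Probe sets of 1 gene share their target, so these counts are not of separate genes. By the brightest probe set of each gene, 4 of 8 genes were higher and 2 lower, beside 16.3% and 13.2% of all genes. Without R1881 replicate 1, 4 probe sets were called higher, and without vehicle replicate 3, 5 were.

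Gedunin plus R1881 against labelled R1881 gave 6 member probe sets higher, 1 lower and 11 not called, beside 12.4% higher and 11.9% lower over all probe sets. The calls came from 4 genes: GDF15 by both probe sets, GADD45A and TNFRSF10B higher, and SESN1 lower. MDM2, TP53I3, DDB2 and FAS had none. By the brightest probe set, 3 of 8 genes were higher and 1 lower, beside 13.7% and 13.0% of all genes. Without R1881 replicate 2, 2 probe sets were called lower, the added one being TP53I3.

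Gedunin plus R1881 against labelled vehicle gave 5 higher, 4 lower and 9 not called, beside 12.9% and 10.6% of all probe sets. GDF15, GADD45A, DDB2 and 2 FAS probe sets were higher. SESN1 and the 3 probe sets of TNFRSF10B were lower. By the brightest probe set, 3 of 8 genes were higher and 2 lower, beside 14.8% and 11.4% of all genes. In limma's F-test over the 3 groups 11 of 18 probe sets passed, beside 35.1% of all probe sets. The median log2 difference of the 18 probe sets was 0.17, −0.01 and 0.16 in the 3 comparisons, and that of all probe sets 0.00, −0.01 and −0.01. These comparisons share arrays, so their calls are not separate evidence.

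**Figure D3:**
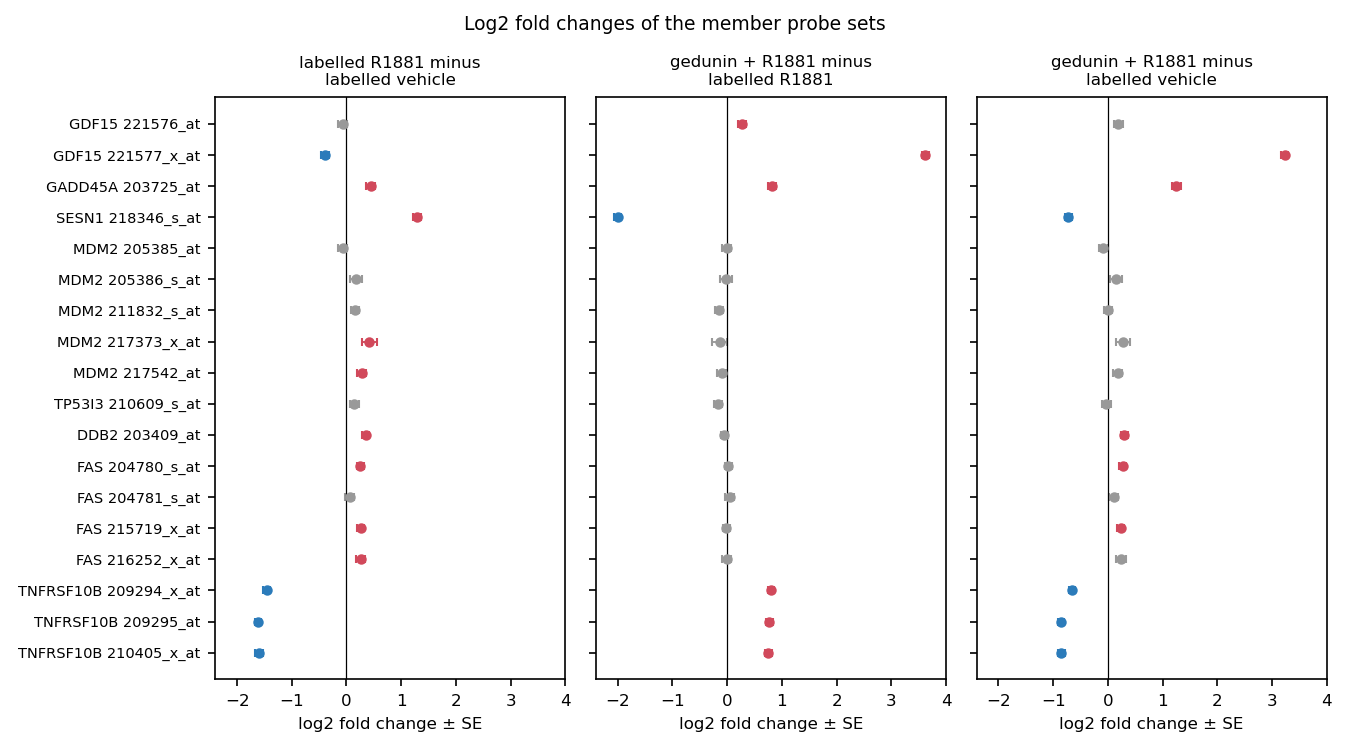
Log2 fold change ± SE from limma (x axis) of the 18 member probe sets (y axis) in the 3 comparisons (panels). Red marks probe sets called higher, blue those called lower and grey those not called. GDF15 221577_x_at stands at 3.62 and 3.23 in the comparisons with gedunin, and the probe sets of MDM2, TP53I3, DDB2 and FAS stay within 0.42 of 0.

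The members varied in different ways over the 9 arrays. On the log2 scale GDF15 221577_x_at correlated at 0.881 with GADD45A and at −0.83 with SESN1, and at 0.064 to 0.153 with the probe sets of TNFRSF10B. The 3 TNFRSF10B probe sets correlated with each other at 0.988 to 0.992. These values describe 9 arrays that share 3 treatments.

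Of the genes that set the level or activity of p53, 10 of 12 listed were measured. On labelled R1881 against labelled vehicle 2 rose and 3 fell, 20% and 30% of the list beside 16.3% and 13.2% of all genes. PPM1D, a phosphatase that switches p53 signalling off and itself a p53 target, was dim with means of 61.5 ± 4.66, 30.1 ± 3.23 and 34.3 ± 2.95 over labelled vehicle, labelled R1881 and gedunin. It fell by 1.03 (limma adjusted p = 1.54e-06) between the first pair and by 0.84 (limma adjusted p = 1.33e-05) with gedunin against labelled vehicle. HIPK2, a kinase of p53, fell by 0.58 on labelled R1881, and CHEK1 and CDKN2A rose by 0.25 and 0.24.

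With gedunin 1 of the 10 rose and 0 fell against labelled R1881 in limma (2 and 0 at an unadjusted p under 0.05): USP7, a deubiquitinase of MDM2 and p53 (0.39 ± 0.058, limma adjusted p = 0.000224). That is 10% of the list, beside 13.7% of all genes higher, and so no more than over all genes. Against labelled vehicle USP7 rose by 0.19 and PPM1D was the 1 that fell. MDM4, the partner of MDM2, was dim with means of 30.2, 30.4 and 33.8 and was not called. The list's median log2 difference was 0.12, −0.07 and 0.11 in the 3 comparisons.

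Of 35 other textbook targets of p53, 27 were measured. On labelled R1881 against labelled vehicle 9 rose and 2 fell (33.3% and 7.41%, beside 16.3% and 13.2% of all genes), led by IGFBP3 (0.86), PCNA (0.73), CYFIP2 (0.65) and CCNG1 (0.37). IGFBP3 encodes a carrier of insulin-like growth factors and PCNA the sliding clamp of DNA polymerases. With gedunin against labelled R1881, 6 rose and 3 fell (22.2% and 11.1%, beside 13.7% and 13.0% of all genes). CDKN1A, which encodes the cyclin-dependent kinase inhibitor p21, had means of 530 ± 14.0, 564 ± 17.0 and 914 ± 35.2 and rose by 0.70 ± 0.055 (limma adjusted p = 9.51e-07).

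PMAIP1, the gene of the cell-death protein NOXA, rose by 0.75 and PERP, a desmosome gene, by 0.60 in the same comparison, whereas PCNA fell by 0.63. Against labelled vehicle, 8 rose with gedunin and 0 fell in limma (10 and 1 at an unadjusted p under 0.05; 29.6% rose, beside 14.8% of all genes), led by IGFBP3 (0.89), CDKN1A (0.78), PHLDA3 (0.63) and PMAIP1 (0.47). BAX, which opens the mitochondrial outer membrane, was dim and not called. The medians of the 27 were 0.09, −0.06 and 0.05, beside 0.00, −0.01 and −0.01 over all probe sets.

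Of 16 listed relatives of the members, 13 were measured, with 4 higher and 3 lower on labelled R1881 against labelled vehicle, 4 and 2 with gedunin against labelled R1881, and 3 and 3 with gedunin against labelled vehicle. These are 30.8% and 23.1%, 30.8% and 15.4%, and 23.1% and 23.1% of the list, beside 16.3% and 13.2%, 13.7% and 13.0%, and 14.8% and 11.4% of all genes. TNFRSF21 (DR6), a relative of the death receptors, had means of 55.2 ± 11.8, 129 ± 10.4 and 301 ± 4.53 and rose by 2.47 ± 0.12 with gedunin against labelled vehicle (limma adjusted p = 8.94e-09) and by 1.23 against labelled R1881. BTG3, a relative of BTG2 that slows proliferation, rose by 0.44 and by 1.2 with gedunin against labelled R1881 and labelled vehicle. GADD45G was lower by −1.93 on labelled R1881 and −1.68 with gedunin against labelled vehicle.

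TNFRSF1A, the main receptor of TNF, fell by 0.56 on labelled R1881 against labelled vehicle and rose by 0.72 with gedunin against labelled R1881. CRYZ, the quinone oxidoreductase related to TP53I3, rose by 0.82 and 0.88 on labelled R1881 and on gedunin arrays against labelled vehicle. TOB1, an antiproliferative relative of BTG2, fell by 0.59 with gedunin against labelled R1881. The relatives' median differences were 0.04, 0.06 and −0.03.

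Around the death receptors, 12 of 16 listed ligands, adaptors, caspases and inhibitors were measured, with 1 higher and 3 lower on labelled R1881 against labelled vehicle, 3 and 2 with gedunin against labelled R1881, and 2 and 2 with gedunin against labelled vehicle. Beside 16.3% and 13.2%, 13.7% and 13.0%, and 14.8% and 11.4% of all genes, these are 8.33% and 25%, 25% and 16.7%, and 16.7% and 16.7% of a short list, which is no result about the pathway. FADD, the adaptor of both receptors, had means of 221 ± 5.83, 185 ± 3.22 and 163 ± 10.4 and fell by 0.25, 0.19 and 0.44 in the 3 comparisons. TRADD, an adaptor of TNF receptors, fell by 0.46 and 0.33 on labelled R1881 and on gedunin arrays against labelled vehicle. BID, which carries the signal to mitochondria, rose by 0.47 on labelled R1881 against labelled vehicle and fell by 0.46 with gedunin against labelled R1881. The ligand genes TNFSF10 and FASLG were dim and not called, and CASP8 was not called.

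DAXX, a FAS-binding protein, fell by 0.27 on labelled R1881 and rose by 0.25 with gedunin against it. FAF1, another FAS-binding protein, rose with gedunin by 0.32 against labelled R1881 and by 0.23 against labelled vehicle. BIRC2, an inhibitor of apoptosis, rose by 0.24 and 0.29. The list's medians were −0.06, 0.06 and 0.01.

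In nucleotide excision repair, the pathway of DDB2, 14 of 15 genes were measured, with 3 higher and 2 lower, 1 and 2, and 2 and 2 in the comparisons in the same order. These shares, 21.4% and 14.3%, 7.14% and 14.3%, and 14.3% and 14.3%, lie near those of all genes (16.3% and 13.2%, 13.7% and 13.0%, 14.8% and 11.4%), which is no result about the pathway. DDB1, the partner subunit of DDB2, fell by 0.38 on labelled R1881 and by 0.27 with gedunin against labelled vehicle. The lesion sensor XPC rose by 0.22 and 0.27 and the scaffold XPA by 0.46 and 0.50 in those comparisons. CETN2, a partner of XPC, fell by 0.31 on labelled R1881 and rose by 0.33 with gedunin against it. CUL4B and ERCC1 fell by 0.29 and 0.23 with gedunin against labelled R1881, and CUL4B also fell by 0.23 against labelled vehicle. The medians were 0.06, 0.04 and 0.06.

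The genes linked to ATF4 and CHOP moved further than any other list here, by the median. Of 15 listed, 14 were measured. With gedunin against labelled R1881, 13 rose and 0 fell in limma (also 13 and 0 at an unadjusted p under 0.05; 92.9% rose, beside 13.7% of all genes), with a median of 1.18 on the log2 scale beside −0.01 over all probe sets. The 1 gene not called was PPP1R15A, which was dim. ATF4 had means of 2790 ± 67.0, 2190 ± 87.4 and 4560 ± 254 over labelled vehicle, labelled R1881 and gedunin, and rose by 1.06 ± 0.060 (limma adjusted p = 4.18e-08).

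DDIT3, which encodes CHOP, had means of 205 ± 11.4, 205 ± 23.3 and 521 ± 30.5 and rose by 1.35 ± 0.084 (limma adjusted p = 1.02e-07). ATF3, a related stress factor, had means of 151 (3 equal values), 94.9 ± 3.78 and 545 ± 68.2 and rose by 2.51 ± 0.080 (limma adjusted p = 2.67e-10). SLC7A11, the cystine carrier of the plasma membrane, rose by 3.55 and NUPR1, a stress-induced chromatin protein, by 1.44.

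Against labelled vehicle, 11 of the 14 rose with gedunin (78.6%, beside 14.8% of all genes) and 1, VLDLR, fell by 0.81, with a median of 0.78. SLC7A11 (2.84), ATF3 (1.85), DDIT3 (1.35) and ASNS (1.25), which encodes asparagine synthetase, rose furthest, and ATF4 rose by 0.71. On labelled R1881 against labelled vehicle, 0 rose and 9 fell in limma (0 and 10 at an unadjusted p under 0.05; 64.3% fell, beside 13.2% of all genes), with a median of −0.39. VLDLR fell by 1.17, SLC7A11 by 0.70, ATF3 by 0.67, CEBPB by 0.65 and ATF4 by 0.35, and DDIT3 differed by 0.00 (adjusted p = 0.977). GDF15 has the order of groups of ATF4, ATF3 and SLC7A11, but GADD45A and TNFRSF10B do not. GADD45A was higher on labelled R1881 than on labelled vehicle (0.44). TNFRSF10B 209295_at was lower with gedunin than on labelled vehicle (−0.86). The part of the listed genes in the members' values was not tested.

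**Figure D4:**
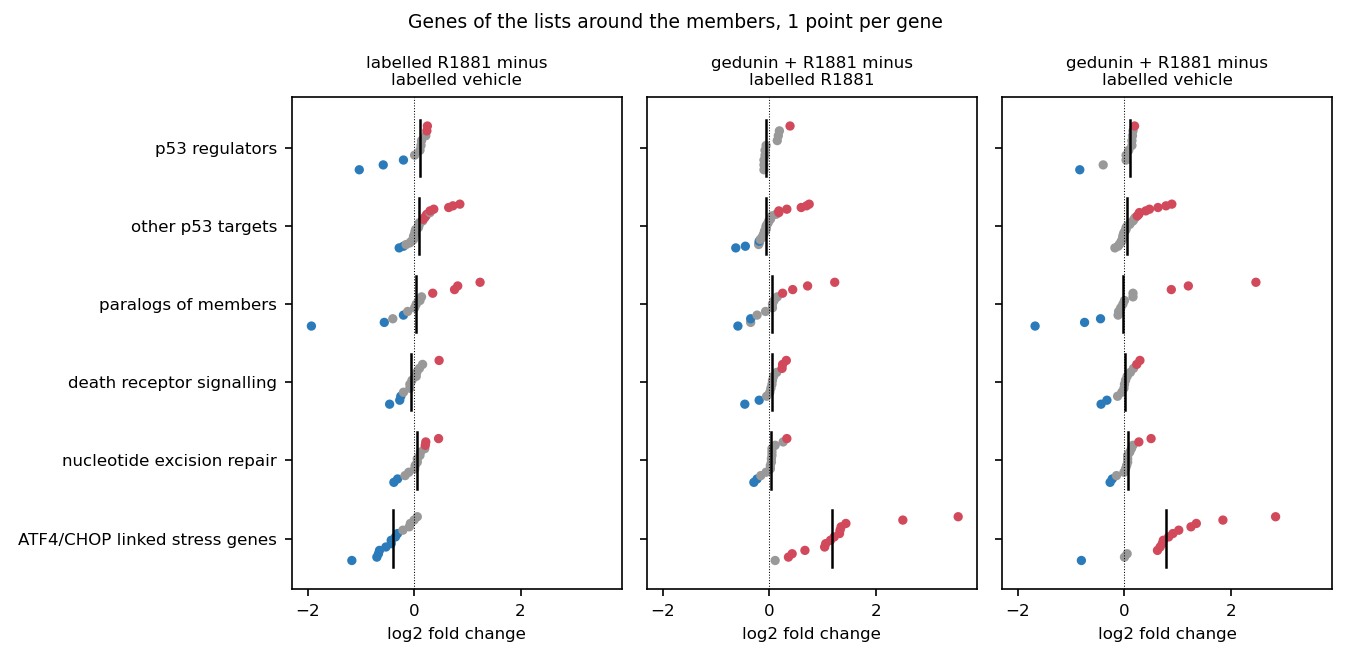
Log2 fold change (x axis) of the genes of 6 lists around the members (y axis), 1 point per gene by its brightest probe set, in the 3 comparisons (panels). Red marks genes called higher in limma, blue those called lower, grey those not called, and the black bar the list's median. The list linked to ATF4 and CHOP has its median at 1.18 and 0.78 in the comparisons with gedunin, and the medians of the other 5 lists stay within 0.12 of 0.

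Genes with the profile most like each member's were sought among 603 genes that passed the F-test and whose group means span at least 1 on the log2 scale, by Pearson's r with the member's brightest probe set over 9 arrays. For GDF15 they were IL6R (0.999), the interleukin-6 receptor, and ME1 (0.999) and PGD (0.998), both enzymes that make NADPH. ME1 had means of 766, 606 and 3380 over labelled vehicle, labelled R1881 and gedunin plus R1881, PGD 438, 400 and 1160, and IL6R 30.2, 25.8 and 79.2. For GADD45A they were the mitosis genes TACC3 (0.989) and CEP55 (0.986) and the prion protein gene PRNP (0.985), which had means of 304, 415 and 752.

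SESN1 was most like PEG3 (0.995), a zinc finger gene with means of 159, 1500 and 56.0, MYC (0.992), with 467, 964 and 318, and TFDP1 (0.992), the partner of E2F factors, with 172, 312 and 133. TNFRSF10B was most like ODC1 (0.998), the ornithine decarboxylase gene with means of 10300, 1850 and 4170, C1orf116 (0.997) and NDRG1 (0.996), with 3580, 249 and 788. For DDB2 the values were lower, 0.953 for LAPTM4B and 0.952 for SDC4 and SQOR.

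The remaining members had no close match by their brightest probe sets. MDM2 reached 0.82 with INSIG2, 0.776 with WLS and 0.772 with CTBP1, and TP53I3 reached 0.736 with PIK3R1, 0.691 with BRDT and 0.686 with PITX1. FAS reached 0.531 with TLE1, 0.509 with TPX2 and 0.506 with TNFRSF21. With 3 groups, genes that share an order and spacing of 3 means have a high r, which is no measure of shared control.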

How the data were processed

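RNA from 9 LNCaP cultures, 3 per group, was labelled with biotin and hybridised to Affymetrix arrays, per the labels. The values the authors deposited are RMA intensities, linear and between 8.63 and 20189, per the submitters' processing notes; the version is not given in the sources used here. RMA normalises quantiles, so changes in total RNA cannot be seen. Precision is limited by 3 arrays per group.

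Tests used log2 of these deposited intensities. Of 22277 probe sets, 62 controls were left out. In the platform annotation 19064 had 1 symbol, 1043 several and 2108 none, and 0 symbols were updated through RefSeq. All tests came from limma 3.58.1, run under R 4.3.3 (lmFit over 9 arrays, 1 coefficient per group, eBayes, two-sided, 6.08 prior degrees of freedom), with Benjamini-Hochberg adjustment over 22215 probe sets and a threshold of 0.05. Lists count each gene by its probe set with the highest mean. On simulated data for gedunin plus R1881 against R1881 with 22215 probe sets, 28% of 1.2-fold, 94% of 1.5-fold and 100% of 2-fold and 4-fold changes were recovered, with 14 false calls. The simulation changed 50 probe sets at each fold size, whereas 2753 were called higher and 2653 lower in the measured comparison. Its recovery of small changes need not hold for the measured data.

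Named were all member probe sets, up to 4 called genes of each list with the largest log2 difference per comparison, MDM4, CDKN1A, ATF4, DDIT3 and ATF3, the 3 genes most like each member, and the androgen genes. KRT8, KRT18, FOLH1, GADD45B, BAX, CASP8, PPP1R15A, TNFSF10 and FASLG were named after their values were seen. The members, lists and tests were chosen with earlier results of these data known. Same-numbered arrays deviated together with correlations of −0.104 to 0.144, so the numbers were not taken as pairs.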

Additional observations from a re-analysis of the deposited data

How the results depend on the processing

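The 6 probe sets of GDF15 (221577_x_at), GADD45A, SESN1 and TNFRSF10B kept direction and call in 300 of 300 values under the alternatives run, with a largest limma adjusted p of 0.00742. The other 7 called probe sets, from GDF15, MDM2, DDB2 and FAS, kept theirs in 282 of 324. With 1 probe set per gene, 6 members were called on labelled R1881 against labelled vehicle (4 higher, 2 lower), 4 with gedunin against labelled R1881 (3 higher), 5 with gedunin against labelled vehicle (3 higher, 2 lower) and 6 in the F-test; fewer probe sets enter there. Without dim probe sets, 7 were called on labelled R1881 against labelled vehicle (3 higher), 2 higher with gedunin against labelled vehicle and 7 in the F-test. Leaving out 1 array at a time gave 4 to 8 higher on labelled R1881 against labelled vehicle and 1 to 2 lower with gedunin against labelled R1881. In the latter comparison 3 FAS probe sets that were called elsewhere had differences near 0 that changed sign: 204780_s_at ranged from −0.04 to 0.06, 215719_x_at from −0.05 to 0.02 and 216252_x_at from −0.11 to 0.08, the last being 0.00 after a further quantile normalisation; the cause was not tested. FAS 204781_s_at (−0.02 to 0.14), MDM2 205385_at and MDM2 205386_s_at, called in no comparison, also changed sign there when 1 array was left out. The fit with the replicate number as a block (replicate block) called 12, 7 and 10 member probe sets, the added one being MDM2 217373_x_at with gedunin against labelled vehicle. Of the list counts, 35 stayed within 1.5 times and 1 moved: with each gene's most variable probe set, 2 p53 regulators in place of 1 rose with gedunin against labelled vehicle. Of the 10 dim probe sets, 5, 1 and 3 were called in the comparisons; whether dim probe sets lie above background was not tested.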
